A study of Arabidopsis thaliana with 8 samples.

Results

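The genes described here are the MYB family transcription factors of Arabidopsis thaliana, taken as every non-control probe whose annotation on the array contains the letters myb in any case. Of 184 such probes, 3 for well-known anthocyanin and clock regulators (PAP1, MYB90 and CCA1) were left out, so the family had 181 members among 21500 genes, each with 1 probe. The rule reads descriptions and not measured values. It takes R2R3 and one-repeat MYB genes, a few of the telomere-binding type, and at least 1 gene that is no MYB factor (AT5G16880, described as like a target of myb1). It misses family genes whose description does not say so: of 115 family genes in the subgroup lists used here it took 98, 15 were on the array under another description and 2 were not matched.

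The study measured shoots of 13-day-old seedlings of the wild-type ecotype Col-0, grown on Murashige and Skoog medium with sucrose. In the treated seedlings the primary root was cut with a razor blade 5 mm below the shoot base, and shoots were taken 30 or 360 min later. Shoots of seedlings with unwounded roots, taken at the same time, were the controls; the labels name no mutant, transgene or other agent. The question was which genes of the shoot respond to a wound in the root. Each of 8 two-colour Agilent arrays carried wounded and control RNA of 1 time, with 2 biological replicates a time and each replicate repeated with the dyes exchanged, so that n = 2 replicate means unless stated. The labels do not say how many seedlings made up a replicate. For each gene the variance was estimated from its replicates at both times together and drawn toward that of other genes. The p-values of the wound response used this pooled variance, so those at 360 min do not reflect the 360 min replicates alone.

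MYB proteins bind DNA through imperfect helix-turn-helix repeats, and R2R3 proteins, with a pair of such repeats, are the largest class in plants. Members of one R2R3 subgroup share short motifs outside the repeats and often regulate the same branch of metabolism or the same stress response, in many cases together with bHLH proteins of the MYC type. In leaves they are known as activators of glucosinolates, flavonols, cuticular wax and secondary walls, while small R3 proteins and the R2R3 proteins of subgroup 4 act as repressors. Wounding of leaves raises jasmonate, and JAZ repressors that bind MYC2 also bind some MYB proteins.

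Values are log2 ratios of wounded over control after background correction and loess normalization, with the sign of the dye-swapped arrays turned. Where 4 array values are listed, they stand in the order replicate 1 with wounded RNA in Cy5, replicate 1 in Cy3, replicate 2 in Cy5 and replicate 2 in Cy3. A gene was tested if its signal was well above background on all 4 arrays in the wounded or the control RNA of at least 1 time, which held for 152 of the 181 members. A total of 90 members passed in all 4 conditions, 45 in 360 min conditions alone, of which 7 in a single condition. The 30 min arrays were dimmer, their median red signal being 184 to 271 units and that of the 360 min arrays 323 to 431, and 105 to 145 members per channel were well above background there against 153 to 169. All 5 shoot markers were tested, but so were 10 of 11 root markers, so probe detection alone does not separate shoot from root here. At 30 min none of the 15 markers passed the test, with log2 ratios from -0.18 to 0.00 for the root markers. At 360 min the root peroxidase gene PER39 passed with -0.38 and RCA (Rubisco activase) with -0.29, calls kept in 6 and 10 of 18 alternatives, and their part in the results below was not tested. RBCS1A (a small subunit of Rubisco) also passed, but its spots were saturated in both channels of all 4 arrays, so no change is given for it. The other 3 shoot markers, LHCA1, LHCB1.3 and LHCB1.2, did not pass at 360 min. Their log2 ratios were 0.21, 0.19 and 0.17, with signs that split by dye. The other 9 tested root markers lay between -0.20 and 0.32 at that time and did not pass. In whole shoots, fewer cells of a type and less RNA per cell cannot be told apart.

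At 30 min, 7 members rose and 8 fell (limma, p adjusted over all genes by Benjamini-Hochberg, under 0.05), which is 9.87% of the 152 tested, beside 6.69% of all genes tested (4.52% higher and 2.16% lower). The median log2 ratio of the family was -0.02 and that of all genes was 0.00, so the centre of the family lay beside that of all genes. Its log2 ratios had an SD of 0.43 over genes against 0.22 for all genes, and 5 members rose at least 2-fold. MYB44, MYB95, MYB47, MYB73 and MYB77 were these 5, and MYBL2 alone fell at least 2-fold. Of 19177 genes tested, 154 rose and 16 fell at least 2-fold past the threshold. The other 137 tested members did not pass and lay between -0.42 and 0.27. The calls of TRB1, MYB70, KUA1, MYB30, MYB3, AT1G19000 and MYB20 were lost when either 30 min replicate was left out, and those of MYBL2 and MYB94 without replicate 2.

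**Figure D1:**
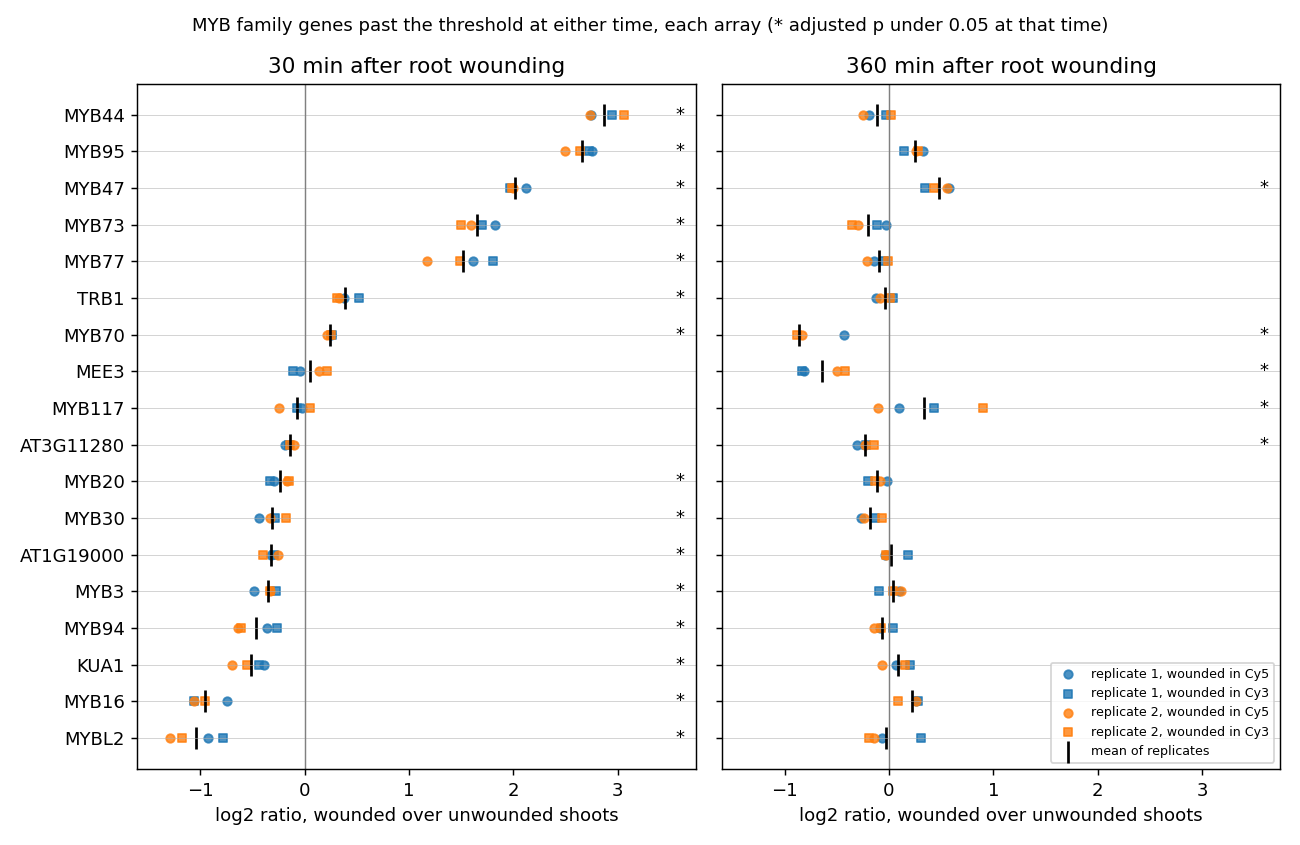
Log2 ratio of wounded over unwounded shoots (x axis) on each array for the 18 MYB family genes past the threshold at 30 or 360 min (rows), with the mean of the replicates as a bar and a star where the adjusted p at that time was under 0.05. At 30 min MYB44, MYB95, MYB47, MYB73 and MYB77 lie above 1 on all 4 arrays and MYBL2 and MYB16 below -0.7; at 360 min most members lie near 0. The 30 min values of MEE3 come from signals not well above background.

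Subgroup 22 of the R2R3 class was the one listed subgroup of which every member rose at 30 min. It holds MYB44 (AT5G67300), known for abscisic acid and stress responses and stomatal closure, MYB77 (AT3G50060), which acts in auxin-responsive lateral root formation, and MYB73 (AT4G37260) and MYB70 (AT2G23290), linked to salt stress and to root growth. All 4 rose, beside 4.52% of all genes tested, with a median log2 ratio of 1.59 beside 0.00 for all genes. The subgroup is listed with earlier results of these data known, so its count is a description.

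MYB44 had the highest ratio of the family at 30 min, with array values of 2.75, 2.94, 2.74 and 3.06. No array fell below 2.7, and the mean was 2.87 ± 0.04 (SD, n = 2), a 7.32-fold increase with a limma adjusted p of 8.46e-06. The scanned signals show the same without normalization. With the wounded RNA in Cy5, the signal minus local background was 4982 and 5544 in wounded shoots and 324 and 389 in controls. With the wounded RNA in Cy3 it was 3064 and 2863 in wounded shoots against 764 and 734 in controls. Wounded and control signals did not overlap on either dye.

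MYB73 gave 1.82, 1.70, 1.60 and 1.5 on the 4 arrays, a mean of 1.65 ± 0.15 and a 3.15-fold increase (adjusted p = 0.000352). MYB77 gave 1.62, 1.81, 1.17 and 1.49, a mean of 1.52 ± 0.27 and a 2.87-fold increase (adjusted p = 0.000626). Both were above 1 on every array, and replicate 1 lay above replicate 2 in both genes. MYB70 rose far less, with 0.25, 0.26, 0.21 and 0.25 on the arrays and a mean of 0.24 ± 0.015 (adjusted p = 0.040). Its call at 30 min was kept in 10 of 18 alternatives, while MYB44, MYB73 and MYB77 passed in all 18.

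The related pair MYB47 (AT1G18710) and MYB95 (AT1G74430) also rose strongly. MYB95 had array values of 2.76, 2.73, 2.50 and 2.64, a mean of 2.65 ± 0.12 and a 6.29-fold increase (adjusted p = 1.83e-05). MYB47 had 2.12, 1.96, 2.00 and 1.98, a mean of 2.02 ± 0.04 and a 4.05-fold increase (adjusted p = 1.82e-05). The 4 arrays of each gene lay close together and far from 0. Their listed companions did not pass: MYB48 had a log2 ratio of -0.31 ± 0.033 (adjusted p = 0.147) and MYB59, a regulator of root growth and ion transport, one of 0.15 ± 0.024 (adjusted p = 0.085). Array signals of MYB47 in the controls were low, at 52 to 109 units above local background, and its ratio grew to 2.86 in the authors' deposited log ratios, which carry no offset.

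**Figure D2:**
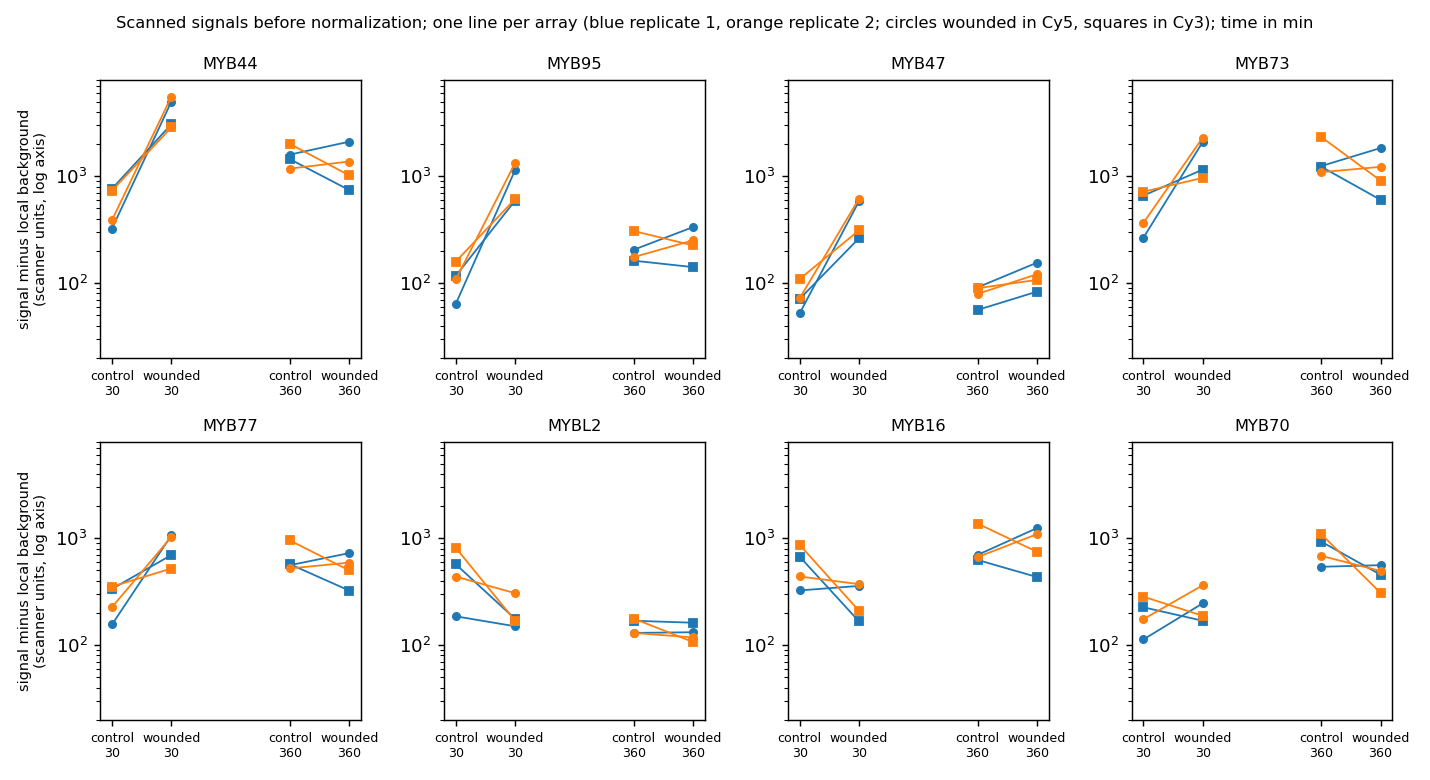
Scanned signal minus local background (y axis, scanner units, log axis) of 8 MYB family genes in control and wounded shoots at 30 and 360 min, before any normalization, with 1 line for each array. For MYB44, MYB95, MYB47, MYB73 and MYB77 all 4 lines rise at 30 min, whichever dye held the wounded RNA, whereas at 360 min the lines of MYB44, MYB73 and MYB77 run up or down with the dye.

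TRB1 (AT1G49950), a one-repeat protein that binds telomere repeats, was the seventh member that rose, with array values of 0.38, 0.52, 0.33 and 0.31 and a mean of 0.39 ± 0.09 (adjusted p = 0.00726). Its change was small beside those of the 5 strongest members.

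The 8 members that fell at 30 min belong to other roles. MYBL2 (AT1G71030), a small MYB repressor of anthocyanin synthesis, had -0.92, -0.78, -1.29 and -1.17 on the arrays and a mean of -1.04 ± 0.27, which is 0.486 of the control (adjusted p = 0.00452). MYB16 (AT5G15310), which promotes conical epidermal cells and cuticle formation, had -0.74, -1.06, -1.06 and -0.95 and a mean of -0.95 ± 0.07, 0.517 of the control (adjusted p = 0.000385). Both lay below -0.7 on every array. MYB16 passed in all 18 alternatives, and MYBL2 in all but the fit without replicate 2 of this time.

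KUA1 (AT5G47390), a one-repeat protein that promotes leaf cell expansion, fell by 0.52 ± 0.14, with array values of -0.39, -0.44, -0.69 and -0.55 (adjusted p = 0.00668). In subgroup 1, which includes regulators of wax synthesis and of defence cell death, 2 of 5 members fell, beside 2.16% of all genes tested. MYB94, an activator of cuticular wax, had -0.36, -0.27, -0.64 and -0.61 and fell by 0.47 ± 0.22 (adjusted p = 0.024), and MYB30, which promotes hypersensitive cell death, fell by 0.31 ± 0.08 (adjusted p = 0.015). The wax activator MYB96 had a log2 ratio of -0.42 ± 0.20 (adjusted p = 0.056), MYB31 one of -0.08 and MYB60, a gene of guard cells, one of -0.04. The median of subgroup 1 was -0.31. In the authors' deposited log ratios the values of MYB94 and KUA1 were -1.10 and -0.90, over 1.5 times larger. With the wounded RNA in Cy3 alone the calls of MYB94 and MYB30 were lost, and that of MYB30 also with the authors' log ratios.

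Subgroup 4 holds repressors of phenylpropanoid synthesis, and 1 of its 4 members passed at 30 min, beside 6.69% of all genes tested. MYB3 fell by 0.35 ± 0.032, with -0.48, -0.27, -0.33 and -0.33 on the arrays (adjusted p = 0.00668). MYB4, the best known of them, had -0.61, -0.48, -0.29 and -0.27, a mean of -0.41 ± 0.19, and did not pass (adjusted p = 0.092). MYB7 had a mean of 0.27 ± 0.08 (adjusted p = 0.078) and MYB32 one of 0.02, so that the subgroup had members on both sides of 0. The unnamed one-repeat gene AT1G19000 fell by 0.32 ± 0.016 (adjusted p = 0.011), and its call and that of MYB3 were also lost with the wounded RNA in Cy3 alone. MYB20, an activator of lignin genes in secondary walls, fell by 0.24 ± 0.10 at an adjusted p of 0.0498, and its call was kept in 9 of 18 alternatives, while its value was -0.47 in the authors' deposited log ratios. The other 11 tested members of the secondary wall group lay between -0.14 and 0.18 and none passed.

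Several MYB genes known from wounding, defence or jasmonate in other settings did not pass at either time. Of all genes tested, 6.69% passed at 30 min and 7.3% at 360 min, so no call in groups this small is near that share. In subgroup 2, MYB15, which acts in cold and in defence lignin, had 0.16 ± 0.09 at 30 min and 0.04 at 360 min, and MYB13 and MYB14 lay between -0.04 and 0.08. In the group of MYB102, a gene named for osmotic stress and wounding, the 3 tested members MYB41, MYB49 and MYB102 lay between -0.13 and 0.04. Of the 6 members of the stress and jasmonate group, MYB2, MYB62 and MYB78 were tested and none passed. They lay between -0.03 and 0.02 at 30 min and between -0.30 and 0.01 at 360 min. Their group members MYB108, MYB112 and MYB116 did not reach the filter. MYB21 and MYB24, jasmonate-responsive factors of the stamen, did not reach it either. For the 29 untested members of the family no level was established: without the filter, none passed at 30 min and 1 at 360 min. Their log2 ratios ran from -0.17 to 0.07 at 30 min and from -0.21, that of MYB116, to 0.14 at 360 min.

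The regulators of glucosinolates, the sulfur-rich defence compounds of this plant order, fell into separate cases. The activators of the aliphatic branch, MYB28, MYB29 and MYB76, had log2 ratios of -0.14, -0.06 and -0.09 at 30 min and between -0.05 and -0.02 at 360 min, and none passed. Of the activators of the indole branch, MYB51 is a member by the rule and had array values of 0.27, -0.02, 0.09 and 0.04 at 30 min, with a mean of 0.10 ± 0.04 (adjusted p = 0.509). The 30 min signals of MYB51 were low, at 36 to 55 units above local background. In the controls they were well above background on 3 of 4 arrays, so a small change could be missed. MYB34 (AT5G60890), which the array describes as a kinase and the rule therefore misses, had 1.46, 1.43, 1.13 and 1.10 and rose by 1.28 ± 0.23, a 2.43-fold increase (adjusted p = 0.000915) that held in all 18 alternatives. MYB122 had a value from 1 replicate, 0.13, and did not pass. Its 30 min signal was well above background on 2 arrays in the wounded RNA and on 1 in the control RNA.

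Genes of the indole branch, listed as known targets of MYB34, MYB51 and MYB122 together with tryptophan supply and shared steps, rose in 11 of 11 cases at 30 min, with a median of 1.28 beside 0.00 for all genes. The sulfotransferase gene SOT16 rose by 2.19 ± 0.07, CYP79B3 by 1.28 ± 0.08 and ASA1, of tryptophan supply, by 1.13 ± 0.07, with adjusted p of 1.82e-05, 0.000139 and 0.000162. Of 11 genes of the aliphatic branch, 4 rose, with a median of 0.12. Both counts stand beside the 4.52% of all genes tested that were higher at 30 min. None of the 6 flavonol genes passed at 30 min, and of 8 wax genes KCS1 alone rose, by 0.71 ± 0.11 (adjusted p = 0.00178). Of 6 tested partner genes, MYC2 was the one that passed.

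At 360 min, 2 members rose and 3 fell, 3.29% of the 152 tested beside 7.3% of all genes tested (3.08% higher and 4.22% lower), so the share was below the background. None changed 2-fold. The family's median was 0.0045 and that of all genes 0.0046, and the SD over members, 0.14, was below the 0.16 of all genes. Of the 14 members with a value from 1 replicate at this time, MYB70 was among the 5.

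MYB47 was the one member that rose at both times. Its array values at 360 min were 0.58, 0.34, 0.55 and 0.43, with a mean of 0.48 ± 0.022, a 1.39-fold increase (adjusted p = 0.00659), and none of them reached the lowest 30 min value of 1.96. In the authors' deposited log ratios its value at 360 min was 0.86. MYB95 had 0.32, 0.14, 0.26 and 0.27, a mean of 0.25 ± 0.025, and did not pass (adjusted p = 0.0507). MYB117 (AT1G26780), which sets boundaries between lateral organs, passed with 0.33 ± 0.10 (adjusted p = 0.021), but its arrays gave 0.10, 0.43, -0.10 and 0.90 and so split by dye. On the arrays with the wounded RNA in Cy5 alone its log2 ratio was -0.0037.

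Of the 3 members that fell at 360 min, MYB70 had array values of -0.43 in replicate 1 and -0.83 and -0.88 in replicate 2, and the fourth array had an outlier spot there. Replicate 1 was therefore dropped, and the value of -0.86 is that of replicate 2 alone, with no spread at 360 min. Its call rests on the spread of its 30 min replicates and on that of other genes. With outlier spots kept, MYB70 did not pass. MEE3 (AT2G21650), a one-repeat gene of the RADIALIS-like type, had -0.81, -0.84, -0.50 and -0.42 and fell by 0.64 ± 0.26 (adjusted p = 0.026). It passed the filter through the 360 min control alone, the condition where it was high, so it was tested because of that condition. The wounded signal was well above background on 3 of 4 arrays. With no filter at all MEE3 still passed, and its call was kept in 11 of 17 alternatives. The authors' deposited log ratios gave it -1.53, without passing. AT3G11280, an unnamed MYB gene, fell by 0.23 ± 0.06 (adjusted p = 0.037). All 5 calls of this time were lost when either 30 min replicate was left out or the time was fitted alone.

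**Figure D3:**
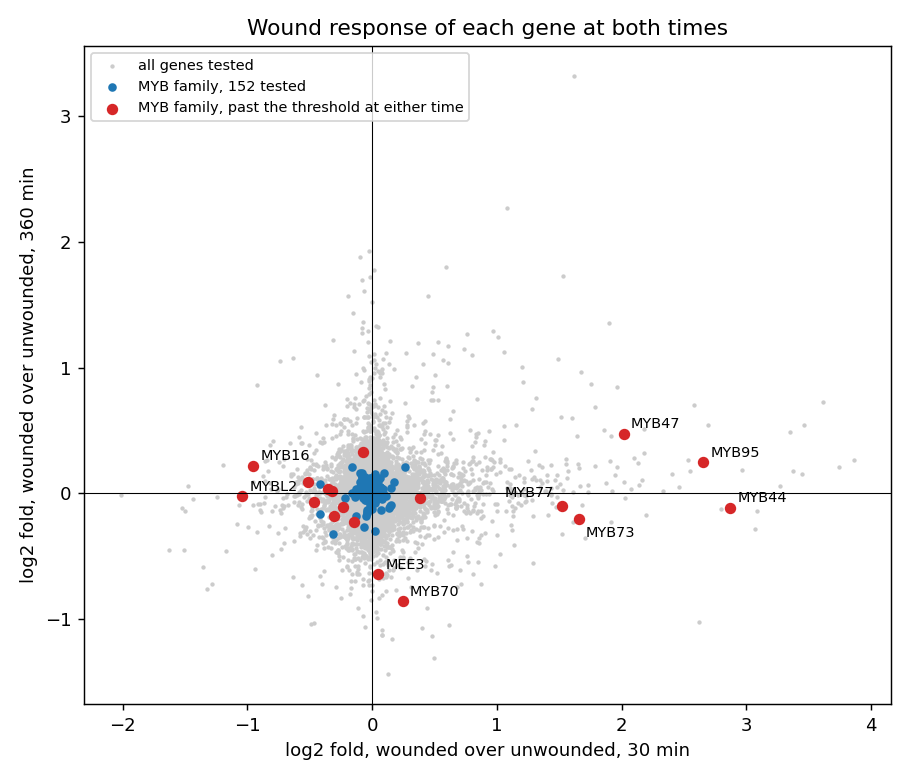
Log2 ratio of wounded over unwounded shoots at 30 min (x axis) against 360 min (y axis) for all genes tested (grey), the 152 tested MYB family genes (blue) and the 18 of them past the threshold at either time (red). MYB44, MYB95, MYB73 and MYB77 lie far to the right and close to 0 on the y axis, and MYB47 lies above 0 on both; every point sets a 30 min value against a 360 min value of the same gene.

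The response differed between the times for 14 members (6 higher and 8 lower at 360 min), 9.21% of those tested beside 7.39% of all genes tested (2.56% higher and 4.83% lower). Of the 15 members past the threshold at 30 min, 12 also passed this test of the difference. The same 30 min values enter both tests, so this overlap is no separate result. The difference, 360 minus 30 min, was -2.98 for MYB44 (adjusted p = 6.61e-05), -2.40 for MYB95 (0.000204), -1.85 for MYB73 (0.00133), -1.62 for MYB77 (0.00299) and -1.54 for MYB47 (0.000324). MYB44 had -0.19, -0.03, -0.25 and 0.02 on the 360 min arrays, all below its lowest 30 min value of 2.74. MYB73 and MYB77 had means of -0.20 ± 0.18 and -0.10 ± 0.011 at 360 min and likewise had no array in common with their 30 min range.

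MYB70 differed by -1.10, with its 360 min value from 1 replicate and so without a spread at that time. TRB1 differed by -0.43 (adjusted p = 0.020). The largest difference upward was that of MYB16, 1.17 (adjusted p = 0.0012). MYB16 lay below -0.7 on each 30 min array and between 0.09 and 0.27 on each 360 min array, with a mean of 0.22 ± 0.07 that did not pass by itself (adjusted p = 0.053). MYBL2 differed by 1.02 (adjusted p = 0.019) and KUA1 by 0.61 (adjusted p = 0.016), and both had means within 0.1 of 0 at 360 min. MYB117, MYB3 and AT1G19000 differed by 0.40, 0.39 and 0.34, calls kept in 11, 13 and 11 of 18 alternatives. The difference of MYB117 ran from 0.13 to 0.68 over them. The differences of MYB70, TRB1, MYBL2 and KUA1, like these, did not pass when either 30 min replicate was left out, and that of KUA1 was 1.01 in the authors' deposited log ratios. MEE3 was the remaining gene of the 14, and no size is given for it, since neither channel was well above background on any 30 min array. MYB34, outside the rule, differed by -1.34 (adjusted p = 0.00447).

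**Figure D4:**
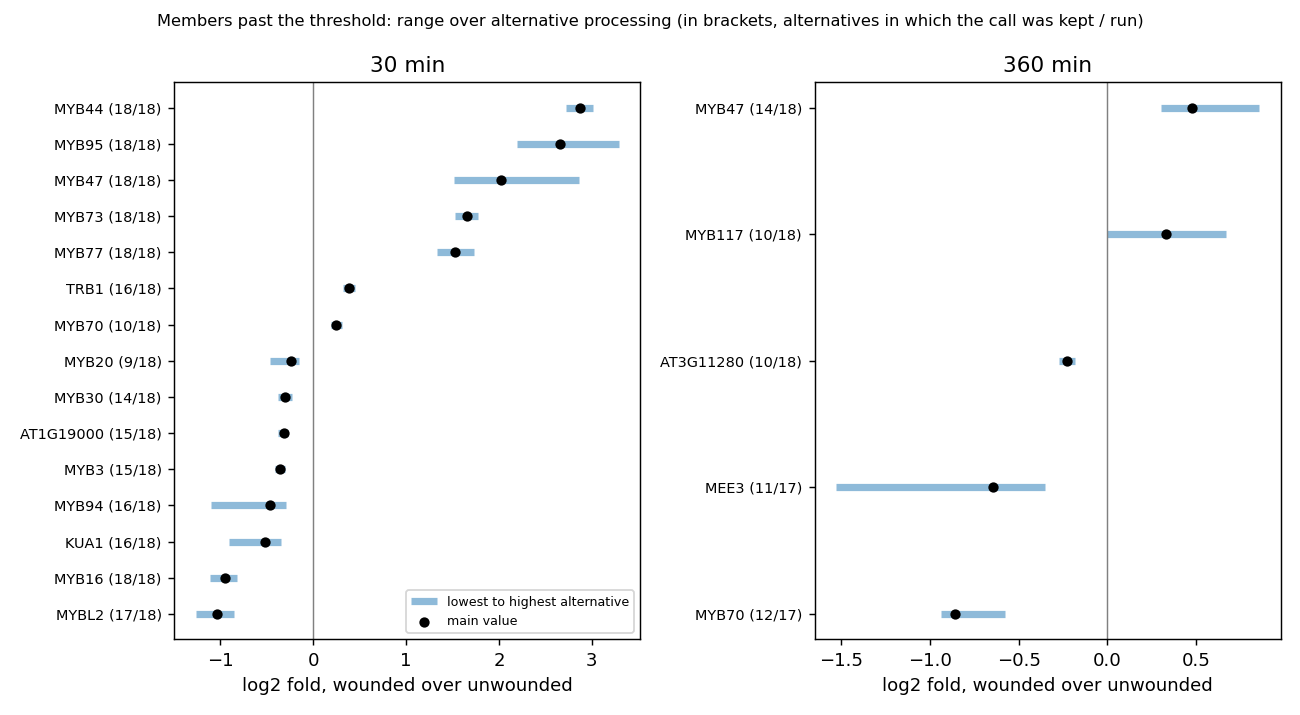
Log2 ratio of wounded over unwounded shoots (x axis) for the members past the threshold at 30 min (left, 15 genes) and at 360 min (right, 5 genes): the point is the reported value and the bar runs from the lowest to the highest value over the alternative ways of processing. Beside each name stand the number of alternatives in which the call was kept and the number run; it is 18 of 18 for MYB44, MYB95, MYB47, MYB73, MYB77 and MYB16 at 30 min, and at most 14 at 360 min.

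The ratios at each time are set against controls of that time, so the members' levels in the controls were compared as well. Between the unwounded shoots at 360 and 30 min, 2 members differed, 1.32% of those tested beside 1.64% of all genes tested. MYBL2 had normalized log2 control levels of 9.36 and 9.45 in the 2 replicates at 30 min and 7.02 and 7.04 at 360 min, so that it fell by 2.37 (adjusted p = 0.000224). This difference between controls was larger than the 1.04 by which wounded shoots lay below controls at 30 min. MYB111, an activator of flavonol synthesis, was higher in the later controls by 1.14 (adjusted p = 0.029), with levels of 6.38 and 6.18 against 7.30 and 7.55, and its control signal was well above background on 1 of 4 arrays at 30 min, so the size is uncertain. This call was kept in 3 of 6 alternatives and lost with median scaling and without either 360 min replicate. For the 5 members that rose most at 30 min the control difference did not pass: it was 0.27 for MYB44, -0.33 for MYB95, -0.91 for MYB47, 0.30 for MYB73 and 0.05 for MYB77. The controls of each time were different samples on different arrays, so the time and differences between those sets of arrays cannot be told apart.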

How the data were processed

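Shoot RNA was hybridised on 8 two-colour arrays. The submitters' processing notes name Agilent Feature Extraction 7.1.1. In the deposited scanner files there are mean and local background intensity per channel on a linear scale, and the authors' log10 ratio of Cy5 over Cy3, which the series matrix repeats exactly. Background was corrected with normexp (offset 50), arrays were normalized by loess with control and outlier spots at weight 0, and dye pairs were averaged (limma 3.58.1, R 4.3.3). The offset pulls ratios, most of all those of dim genes, toward 0. A spot is well above background at 2.6 background deviations, per the file headers. Of 21500 genes 19178 were kept. The fit had a coefficient per time and a variance per gene shared by both times. It had 2 residual degrees of freedom at most and 3.58 from the prior. The p-values were 2-sided and adjusted over all genes. No alternative was added to those planned. In a test on simulated 30 min data for 19178 genes, 79.1% of genes changed by 0.5 (log2) were recovered, and median estimates for changes of 0.5, 1 and 2 were 0.34, 0.73 and 1.55, so printed ratios tend to understate a change. Members and lists were chosen with earlier results of these data known.

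At each time the named members past the threshold are up to 10 with the highest and 10 with the lowest ratio, with 1 sign on every array, the 5 highest and lowest for the difference and for the controls, and members of the listed subgroups; of target, partner and marker lists, up to 3 with the smallest adjusted p. MYB117 at 360 min and the other members past the threshold for the difference lie outside this rule and were named after their values were seen, as were some members given to account for a group. Symbols come from a RefSeq table of assembly TAIR10.1, which matched 177 of 181 members. The file headers date the image quantification, which was done on a separate day for each replicate, so that day and replicate coincide.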

Additional observations from a re-analysis of the deposited data

Results flagged for a closer look

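The response of 13 members with signal at both times differed between 360 and 30 min in a test of the difference itself (limma, adjusted p under 0.05). The difference was -2.98 for MYB44, -2.40 for MYB95, -1.85 for MYB73, -1.62 for MYB77, -1.54 for MYB47, -1.10 for MYB70 and -0.43 for TRB1. It was 1.17 for MYB16, 1.02 for MYBL2, 0.61 for KUA1, 0.40 for MYB117, 0.39 for MYB3 and 0.34 for AT1G19000. Those of MYB44, MYB95, MYB73, MYB77, MYB47 and MYB16 passed in all 18 alternatives, and the other 7 did not pass when either 30 min replicate was left out.

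Single arrays stood apart from the other 3 of their time in 9 of 156 sets of 4 arrays, by Dixon's test, where chance alone flags about 1 in 20, or 7.8. In members these were the log2 ratios of AT1G19000 (0.18 at 360 min, others -0.04 to -0.02), MYB29 (-0.17 at 360 min, others -0.02 to 0.00), MYB16 (0.091 at 360 min, others 0.26 to 0.27) and MYB41 (-0.044 at 30 min, others 0.02 to 0.03). The 5 others lie outside the rule. They were RVE1 at 30 min (-0.081), TRY at 30 min (0.10), ASA1 at 30 min (1.01), CYP79B2 at 360 min (0.20) and FMO_GS-OX1 at 360 min (0.014).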

How the results depend on the processing

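Of the members that passed at 30 min, MYB44, MYB95, MYB47, MYB73, MYB77 and MYB16 kept their calls, and those of the difference, in all 18 alternatives; the cause of the changes below was not tested. The count of 15 members at 30 min became 24 with arrays as units and a random dye pair block, 9 with the wounded RNA in Cy3 alone, and 6 to 20 without 1 replicate (8 without 30 min replicate 1, 6 without replicate 2). The count of 5 at 360 min became 8 with no background correction, 1 with the authors' log ratios, 3 with median normalization, 3 with outlier spots kept, 0 with each time fitted alone, 15 with the random dye pair block, 14 with Cy5 alone, 1 with Cy3 alone, 2 at an adjusted p of 0.01, and 0 to 8 without 1 replicate; 26 members had an unadjusted p under 0.05. For the difference, 14 became 9 with the authors' log ratios, 8 with Cy3 alone, 7 at an adjusted p of 0.01 and 6 to 17 without 1 replicate. With the replicate number as a block (replicate block), it was 16, but the labels do not pair the numbers, and deviations of same-numbered replicates correlated at -0.03 in the ratios and 0.10 in the control levels over 17444 genes. For the controls, 2 became 4 with the replicate block (all genes from 315 to 827), 4 with median scaling and 1 to 11 without 1 replicate. Counts over all genes moved in these settings as well. At 30 min 1282 became 2096 with the dye pair block and 779 with Cy3 alone. At 360 min 1398 became 130 with the authors' log ratios, 79 with each time fitted alone, 2856 with the block and 190 with Cy3 alone. An unadjusted p under 0.05 at 360 min was found for 4086 of 19146 genes, beside the 26 of 152 members. With Cy5 alone MYB117 at 360 min turned to -0.0037 and saturated RBCS1A to -0.63. The planned random block for slide or extraction batch was not run, as each slide held 1 array and each day of image quantification 1 replicate. Signal limits the 30 min arrays most, where 45 tested members were not well above background on all arrays of either condition.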

Other observations

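Among the 15 family genes on the array that the description rule misses, 3 passed at 30 min and 2 at 360 min, beside 6.69% and 7.3% of all genes tested. Beside MYB34, these were RVE7, RVE2 and MYBS2. RVE7 (AT1G18330), a one-repeat gene of the clock-related REVEILLE group, had -0.36, -0.28, -0.35 and -0.29 on the arrays at 30 min and 0.36, 0.40, 0.53 and 0.47 at 360 min. It fell by 0.32 ± 0.001 (limma adjusted p = 0.014) and then rose by 0.44 ± 0.09 (adjusted p = 0.00987), a difference of 0.76 (adjusted p = 0.00398). The 30 min call was lost with the wounded RNA in Cy3 alone and without either 30 min replicate, and the 360 min call in 4 of 18 alternatives; the authors' deposited log ratios gave -0.54 at 30 min. RVE7 was the one listed family gene that passed both with a decrease at 30 min and with an increase at 360 min. By sign alone others did the same, such as MYB16, which did not pass at 360 min. RVE2 (AT5G37260), also a REVEILLE gene, had -0.42, -0.46, -0.40 and -0.50 at 360 min and fell by 0.45 ± 0.007 (adjusted p = 0.00792), a call kept in 13 of 17 alternatives. At 30 min its signal was not well above background on any wounded array, and in the controls it was so on 2 of 4 arrays. Between the unwounded shoots RVE2 was higher at 360 than at 30 min by 1.41 (limma adjusted p = 0.010), a size made uncertain by that low signal. MYBS2 (AT5G08520), a one-repeat gene of sugar and abscisic acid responses, fell by 0.27 ± 0.05 at 30 min (adjusted p = 0.015), but not with Cy3 alone or without either 30 min replicate, and the authors' deposited log ratio was -0.63. The 4 tested REVEILLE members that the rule takes lay between -0.12 and 0.09 at both times and did not pass.

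The three-repeat MYB genes and CDC5, which act in the cell cycle and in splicing, gave 0 of 7 calls at either time. Their log2 ratios ran from -0.03 to 0.06 at 30 min. Of all genes tested, 6.69% passed at 30 min and 7.3% at 360 min, so 0 of 7 is near that share. The epidermal repressors CPC, ETC1, ETC2 and ETC3 did not pass at either time and lay between -0.10 and 0.00 at 30 min and between 0.08 and 0.17 at 360 min. At 360 min, 3 of 11 aliphatic glucosinolate genes rose, beside 3.08% of all genes tested. MAM1 led them at 0.61 ± 0.037 (adjusted p = 0.0050) and passed in all 18 alternatives, while CYP79F1 and CYP83A1 were kept in 12 each. Of the 6 flavonol genes F3H, with 1 replicate, and F3primeH passed at 0.57 and 0.50, kept in 11 of 17 and 13 of 18 alternatives and lost with the authors' log ratios. Of the 8 wax genes, 3 fell at 360 min, beside 4.22% of all genes tested. KCS1, a fatty acid elongase gene for wax, rose at 30 min (not without 30 min replicate 1) and fell by 0.72 ± 0.09 at 360 min (adjusted p = 0.00581). KCS6 fell by 0.33 (adjusted p = 0.012) and CER3 by 0.22 (adjusted p = 0.046), calls kept in 13 and 6 of 18 alternatives.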
